A study of Rattus norvegicus with 17 samples.

Results

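Gad1, Gad2 and Slc32a1, which serve the synthesis of GABA and its loading into vesicles, were measured in cord RNA from 17 rats that formed 5 groups. The members were chosen by name and Ensembl identifier, ENSRNOG00000000007 for Gad1, ENSRNOG00000018200 for Gad2 and ENSRNOG00000015393 for Slc32a1. They are 3 of the 32494 genes in the deposited count table, and all 3 passed the filter on low counts, which left 15460 genes. The rats were female Sprague-Dawley rats, 10 to 12 weeks old, and every rat received an electrode in the nucleus raphe magnus (NRM), a serotonergic nucleus of the lower brainstem. The 4 rats of group A had a laminectomy alone and an electrode that was not used. The 3 rats of group B had spinal cord injury (SCI) with an unused electrode, the 3 of group C had SCI with NRM stimulation, and the 2 of group D had SCI with stimulation preceded by pimozide at 1 mg/kg. The 5 rats of group E had a laminectomy alone and NRM stimulation. SCI was a moderate thoracic contusion, and stimulation was given for 2 h on the third day (72 h) under isoflurane, with the cord dissected at its end. Each rat gave 1 library from its cervical, thoracic and lumbar cord together. All rats also received an opioid analgesic and an antibiotic after surgery. The treatment labels of the 5 rats of group E call them unstimulated, whereas their titles and the series design place them in the stimulated group, and they were analyzed as stimulated.

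GABA is made from glutamate by glutamate decarboxylase, and Gad1 and Gad2 encode the 2 forms of that enzyme. The Gad1 enzyme is found throughout the neuron and supplies most of the GABA, whereas the Gad2 enzyme is concentrated at nerve terminals. Slc32a1 encodes the vesicular inhibitory amino acid transporter (VGAT), which loads GABA, and also glycine, into synaptic vesicles. In the spinal cord these genes mark inhibitory interneurons of the dorsal and ventral horns, which restrain sensory relay and motor output, and the transporter is present in glycine-releasing neurons as well.

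The start regions of the 3 genes are shown because the levels of the transcripts were correlated among the injured rats. Whether these regions bear on that correlation was not tested. The sequences are those of RefSeq on the GRCr8 assembly, and each runs from 250 bases before to 50 bases after the annotated start, 5′ to 3′. All 3 genes were found in that table by symbol. Capitals mark matches to any of the motifs searched on both strands, which were TATAAA for the TATA box, CCAAT for the CCAAT box, GGGCGG for the GC box, TGACG for the core of the cAMP response element, TGACGTCA for the whole of that element, which contains the core, CAGCTG for an E-box, GCGTGGGCG for Egr1 and TTCAGCACC for the left part of the REST element. Gad1 and Slc32a1 are on chromosome 3 and Gad2 is on chromosome 17, all on the + strand, at chr3:75777202-75777501, chr17:89671468-89671767 and chr3:167686995-167687294.
Gad1: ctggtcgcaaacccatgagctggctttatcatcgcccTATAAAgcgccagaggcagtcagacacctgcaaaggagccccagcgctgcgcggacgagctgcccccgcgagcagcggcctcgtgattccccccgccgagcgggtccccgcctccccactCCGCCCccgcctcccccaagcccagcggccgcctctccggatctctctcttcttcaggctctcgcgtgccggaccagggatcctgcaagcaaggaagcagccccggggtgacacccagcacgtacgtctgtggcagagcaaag
Gad2: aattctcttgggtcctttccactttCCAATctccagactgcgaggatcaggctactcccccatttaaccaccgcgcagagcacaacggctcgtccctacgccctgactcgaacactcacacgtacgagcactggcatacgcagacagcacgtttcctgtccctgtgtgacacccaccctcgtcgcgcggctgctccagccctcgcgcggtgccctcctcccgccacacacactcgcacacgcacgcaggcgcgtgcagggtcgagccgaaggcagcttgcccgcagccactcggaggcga
Slc32a1: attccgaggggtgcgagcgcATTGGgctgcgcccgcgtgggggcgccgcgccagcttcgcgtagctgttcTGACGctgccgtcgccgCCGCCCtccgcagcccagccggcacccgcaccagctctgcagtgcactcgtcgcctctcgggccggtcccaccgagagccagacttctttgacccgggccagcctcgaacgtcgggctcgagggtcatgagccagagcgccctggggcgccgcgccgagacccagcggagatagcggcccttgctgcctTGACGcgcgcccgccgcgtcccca

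The regions were rich in CpG dinucleotides, with 26 in Gad1, 29 in Gad2 and 42 in Slc32a1 against a median of 7 over 33469 regions of the same length. Gad1 held TATAAA at 213 bases before the start, which 14.2% of all regions hold, and 1 GC box, which 33.1% hold. Gad2 held 1 CCAAT, present in 37.5% of the regions, and none of the other motifs. Slc32a1 held 1 CCAAT, 1 GC box and 2 copies of TGACG, a motif present in 21.2%. No motif was shared by all 3 regions. The matches describe letters in this window, and the counts were made on an earlier build of the genome.

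Levels are given in CPM, the count of a gene relative to the total of its library, after TMM scaling, which corrects that total for differences in composition. The rats had 9852873 to 14137717 counts on genes, of which 532 to 1620 fell on any one member. TMM factors ranged from 0.966 to 1.05. The lowest count, for Slc32a1 in rat 76, gave 48.3 CPM with a 95% Poisson interval of 44.3 to 52.6 CPM, which covers counting error only. A single edgeR model of the 5 groups gave each contrast its quasi-likelihood test, and p-values were adjusted by Benjamini-Hochberg over all 15460 genes (edgeR-adjusted p in what follows). Members past an adjusted p of 0.05 are described as called. None of the members met the further limit of the paper, an absolute log2(FC) above 1, in any contrast.

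Mean Gad1 was lower in each injured group than in either intact group. Its level was 122, 116, 117 and 104 CPM in the 4 rats of group A, and 125, 95.7, 113, 113 and 114 CPM in the 5 rats of group E. The injured rats had 80.5, 96.7 and 92.7 CPM in group B, 75.6, 82.1 and 101.5 CPM in group C, and 94.2 and 68.6 CPM in group D. The rats of groups B and C lay below all 4 rats of group A, as was so for 15.1% of the genes tested in B and for 12.5% in C, and among the 9 intact rats rat 85 of group E alone fell into the range of the injured rats. The group means were 115 ± 7.60 CPM (SD, n = 4) in A, 112 ± 10.6 CPM (SD, n = 5) in E, 89.99 ± 8.41 CPM (SD, n = 3) in B, 86.4 ± 13.5 CPM (SD, n = 3) in C and 81.4 ± 18.1 CPM (SD, n = 2) in D.

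Gad2 followed the same order of group means with more spread. It was at 120.5, 100.6, 112 and 103 CPM in group A and at 129, 83.6, 95.3, 101.3 and 104 CPM in group E. In the injured rats it was at 84.1, 103 and 78.9 CPM in group B, 69.4, 77.5 and 106 CPM in group C, and 93.9 and 61.6 CPM in group D. Injured and intact rats overlapped in Gad2, since rats 94 (group B) and 93 (group C) reached the level of the sham rats, and 6 of the 9 intact rats lay at or below the 106 CPM of rat 93. The means were 109 ± 9.05 CPM (SD, n = 4) in A, 103 ± 16.6 CPM (SD, n = 5) in E, 88.7 ± 12.8 CPM (SD, n = 3) in B, 84.4 ± 19.3 CPM (SD, n = 3) in C and 77.7 ± 22.8 CPM (SD, n = 2) in D.

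Relative to its mean, Slc32a1 varied least of the 3 in groups A, B and E and most in groups C and D. In group B its SD was 9.31% of the mean, close to the 9.34% of Gad1. The 4 rats of group A had 94.5, 97.6, 94.8 and 96.8 CPM, and those of group E had 109, 93.6, 102.7, 88.9 and 89.6 CPM. The injured rats had 69.998, 84.4 and 78.6 CPM in group B, 48.7, 71.6 and 91.3 CPM in group C, and 75.3 and 48.3 CPM in group D. The SD was 1.51 CPM in group A (mean 95.9, n = 4) and 8.66 CPM in group E (mean 96.7, n = 5), against 7.23 CPM in group B (mean 77.6, n = 3), 21.4 CPM in group C (mean 70.5, n = 3) and 19.1 CPM in group D (mean 61.8, n = 2). In all 3 genes groups A and E held the top of the order, followed by B, C and D, and neither the step from A to E nor those from B to C and from C to D passed a test. The chi-square per degree of freedom of the Slc32a1 counts, which is near 1 where rats differ by counting error alone, was 0.262 in group A and 74.5 in group C, where rat 89 was low and rat 93 was high.

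**Figure D1:**
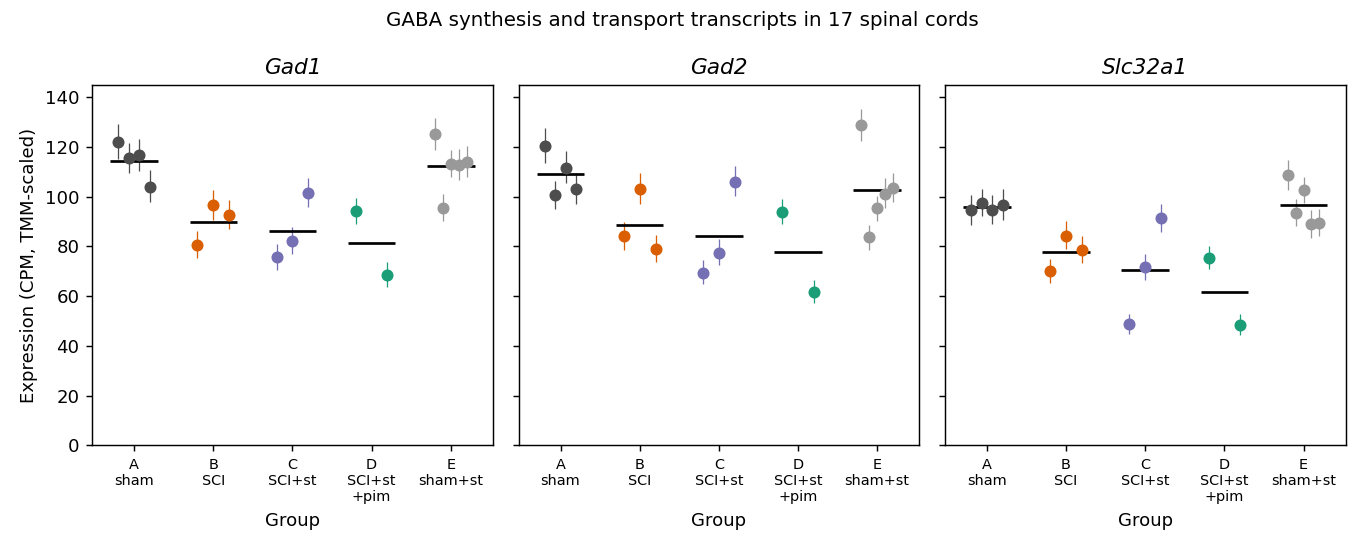
Level of Gad1, Gad2 and Slc32a1 in each rat (vertical axis, CPM after TMM scaling, from 0) by group (horizontal axis), with the group mean as a horizontal bar and the 95% Poisson interval of counting error as a thin line. Group means of the injured groups B, C and D lie below those of the intact groups A and E for each gene, and the rats of groups C and D spread widely.

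The effect of injury, which the study examined without stimulation in ±SCI(0) and with it in ±SCI(st), was estimated with most precision from groups B and C together against A and E together. Gad1 fell by 0.36 on the log2 scale in injured rats (SE 0.0839, edgeR-adjusted p = 0.0030), a change of -22.2% with a 95% interval of -31.2% to -12.1%. Slc32a1 fell by 0.38 (SE 0.115, edgeR-adjusted p = 0.015), a change of -23.1% with an interval of -35.0% to -9.10%. Gad2 had a log2(FC) of -0.29 (SE 0.116, edgeR-adjusted p = 0.058) and was not called, with an interval of -30.9% to -3.02%. Gad2 was called by DESeq2 (adjusted p = 0.046) and by edgeR fitted on groups A, B, C and E alone (adjusted p = 0.035). DESeq2 called 6024 genes in all, 2745 of them lower. The edgeR fit on those groups called 6215 of 15154 genes, 2949 of them lower. So 2 of 3 members were called lower in the model of all rats, where 39.0% of the 15460 genes tested were called, 17.9% lower and 21.0% higher. Of the 6 injured rats, 6 lay below the mean of the intact rats in Gad1, 5 in Gad2 and 6 in Slc32a1. A decrease in cord RNA does not tell fewer inhibitory neurons from less RNA per neuron. CPM is a share of the library, so a lower value does not by itself show less of the transcript in the cord. Each library also mixes the contused thoracic block with cervical and lumbar cord.

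Against all genes tested these were modest shifts. The median log2(FC) over the 15460 genes was -0.02 in the same contrast, and 11.5% of genes had a lower log2(FC) than Gad1, 16.9% than Gad2 and 10.4% than Slc32a1. A 2-sided exact permutation test on log2(CPM + 0.5), 6 injured rats against 9 intact rats, gave unadjusted p = 0.0012 for Gad1, 0.026 for Gad2 and 0.0012 for Slc32a1, a test that was added once results were known.

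**Figure D2:**
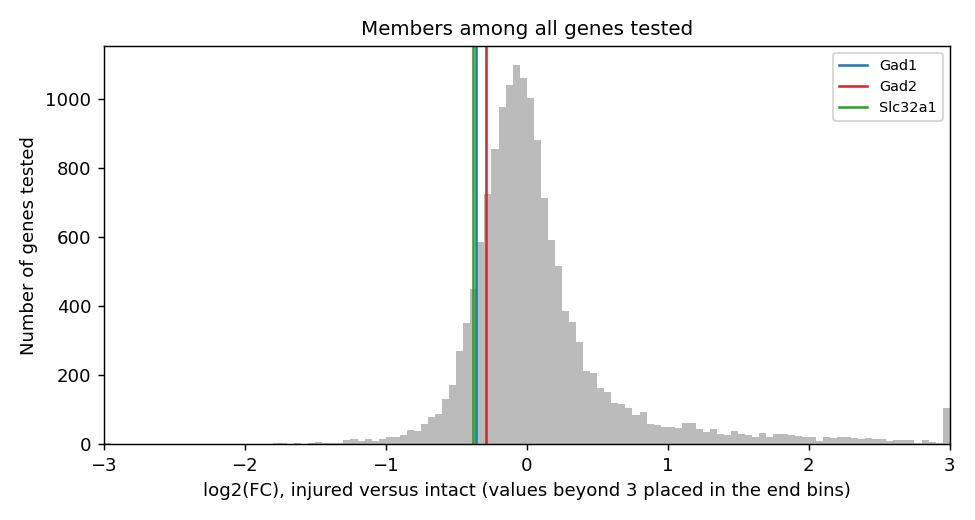
Number of genes tested (vertical axis) by log2(FC) of injured versus intact rats (horizontal axis), with a vertical line for each of Gad1, Gad2 and Slc32a1. The 3 lines lie between -0.38 and -0.29, below the median of -0.02.

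In the contrasts of 1 injured with 1 intact group the log2(FC) of the members lay between -0.45 and -0.28. In ±SCI(0), 0 of 3 members were called, against 12.4% of genes in either direction and 2.72% lower. Gad1 had a log2(FC) of -0.35 (SE 0.121, edgeR-adjusted p = 0.070), Gad2 of -0.30 and Slc32a1 of -0.30. All 3 rats of group B lay below the lowest rat of group A in Gad1 and in Slc32a1, against the 15.1% of genes that were lower without overlap. The unadjusted p of that edgeR test was 0.010 for Gad1, 0.094 for Gad2 and 0.083 for Slc32a1. Fitted on the rats of groups A and B alone, Gad1 and Slc32a1 were called, at adjusted p = 0.012 and 0.013 by the same edgeR test, in a fit that called 3339 of 14657 genes, 1244 of them lower, and DESeq2 over all 17 rats called Gad1, at an adjusted p of 0.037, among 2289 genes. Gad1 was also called when rat 75, 76, 89 or 93, none of them in the contrast, was left out of the model, at edgeR-adjusted p of 0.037 to 0.048. Of the genes called in this contrast 22.0% were lower, and 11.9% with scaling by total counts.

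Injury with stimulation against sham rats without it, ±st/SCI(0), called Gad1 alone, where 21.9% of genes were called and 7.08% were called lower. Of the genes called 32.4% were lower, and 21.6% with scaling by total counts. Gad1 fell by 0.41 (SE 0.121, edgeR-adjusted p = 0.025), while Slc32a1 had a log2(FC) of -0.44 (SE 0.166, edgeR-adjusted p = 0.065) and Gad2 of -0.37 (SE 0.167, edgeR-adjusted p = 0.12). Slc32a1 was called there by edgeR's exact test (adjusted p = 0.046) and by DESeq2 (adjusted p = 0.040). The exact test called 3594 of 15460 genes there, 1220 of them lower, and DESeq2 called 3726 genes, 1329 of them lower. In ±SCI(st), where 28.6% of genes were called and 11.3% were called lower, Gad1 fell by 0.38 (SE 0.116, edgeR-adjusted p = 0.023) and Slc32a1 by 0.45 (SE 0.159, edgeR-adjusted p = 0.041), and Gad2 had a log2(FC) of -0.28 (SE 0.160, edgeR-adjusted p = 0.20). The Slc32a1 call in ±SCI(st) was lost with the number series as a covariate (adjusted p = 0.062), with groups C and E alone (adjusted p = 0.072) and with the pipeline of the paper's methods (adjusted p = 0.064), all in edgeR. Both contrasts rest on the 3 rats of group C. Without rat 89 the log2(FC) of Gad1 was -0.32 in ±st/SCI(0) and -0.29 in ±SCI(st), and that of Slc32a1 in ±SCI(st) was -0.25, with adjusted p of 0.155, 0.145 and 0.255 by edgeR's quasi-likelihood test, so that no member was called. Without rat 93, which lay highest in group C, Gad2 was called in both contrasts, at -0.56 (adjusted p = 0.019) and -0.47 (adjusted p = 0.033), and Slc32a1 was called in ±st/SCI(0), at -0.66 (adjusted p = 0.0050), all by the same test. Slc32a1 was also called in ±st/SCI(0) without rat 75 or rat 76 of group D, which is not in the contrast, at an unchanged -0.44 and an edgeR-adjusted p of 0.036 for each. The Gad1 call in ±st/SCI(0) was also lost without rat 70 (adjusted p = 0.061) or rat 90 (adjusted p = 0.082), and that in ±SCI(st) without rat 90 (adjusted p = 0.084) or rat 69 (adjusted p = 0.05003), by the same edgeR test. The Slc32a1 call in ±SCI(st) was lost when any 1 of rats 69, 70, 82, 85, 86, 89, 90 and 95 was left out. The shares of all genes called in the fits without 1 rat are not given here. Calls gained or lost in those fits therefore cannot be set against all genes.

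Stimulation changed none of the members detectably. In injured rats, ±st(SCI), the log2(FC) was -0.06 for Gad1 (SE 0.129), -0.07 for Gad2 (SE 0.179) and -0.14 for Slc32a1 (SE 0.177), each with an adjusted p of 1.0 by edgeR's quasi-likelihood test. Single rats of group C set these values: without rat 89 they were 0.030, 0.050 and 0.070, and without rat 93 they were -0.18, -0.26 and -0.36, with no member called in either fit. For Gad1 the 95% interval ran from -20.5% to 16.0%, and for Slc32a1 from -29.8% to 17.7%. In intact rats, ±st(0), the log2(FC) was -0.03 for Gad1 (SE 0.105), -0.09 for Gad2 (SE 0.145) and 0.01 for Slc32a1 (SE 0.143), with edgeR-adjusted p of 0.965, 0.910 and 0.991. The Gad1 interval ran from -16.0% to 14.2%, and that of Slc32a1 from -18.3% to 24.4%. Beside the 0 of 3 members called, the model called 0% of all genes in either contrast, with 476 genes in ±st(SCI) and 1297 in ±st(0) at an unadjusted p under 0.05. DESeq2 called 0 genes in ±st(SCI) and 44 in ±st(0), edgeR's exact test 0 and 33, and the pipeline of the paper's methods 33 and 51. The interaction, which tests whether stimulation acted differently in injured and intact rats, was -0.03 for Gad1 (SE 0.166), 0.02 for Gad2 (SE 0.230) and -0.15 for Slc32a1 (SE 0.228), and called 0% of genes, with 635 at an unadjusted p under 0.05 and 0 called by DESeq2. Without rat 89 it was 0.060 for Gad1, 0.14 for Gad2 and 0.059 for Slc32a1, and without rat 93 it was -0.15, -0.18 and -0.37.

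Pimozide, an antagonist of serotonin and dopamine receptors, was compared in ±pim(st/SCI) on 2 rats that differed from each other more than the groups did. The log2(FC) was -0.08 for Gad1 (SE 0.144), -0.12 for Gad2 (SE 0.200) and -0.19 for Slc32a1 (SE 0.198), and 0 of 3 members were called, against 0.0323% of genes. Group D lies wholly in the first of 2 series of rat numbers and group C in the second, and with the series as a covariate the log2(FC) was -0.25 for Gad1, -0.43 for Gad2 and -0.29 for Slc32a1, and again no member was called. Without that covariate the Gad1 interval ran from -23.7% to 16.5%, and that of Slc32a1 from -34.3% to 17.5%. Single rats set the direction of these values: without rat 76 they were 0.12, 0.15 and 0.095, without rat 93 of group C 0.043, 0.080 and 0.041, and without rat 75 -0.33, -0.45 and -0.55, with no member called in these fits. Rat 76 lay below all rats of group C in each transcript and rat 75 lay between them. With the pimozide group counted among the injured rats, an average added once results were known, Gad2 was also called lower, by 0.34 on the log2 scale (edgeR-adjusted p = 0.017), beside 0.40 for Gad1 and 0.47 for Slc32a1. That average called 6976 of the 15460 genes, 3505 of them lower.

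**Figure D3:**
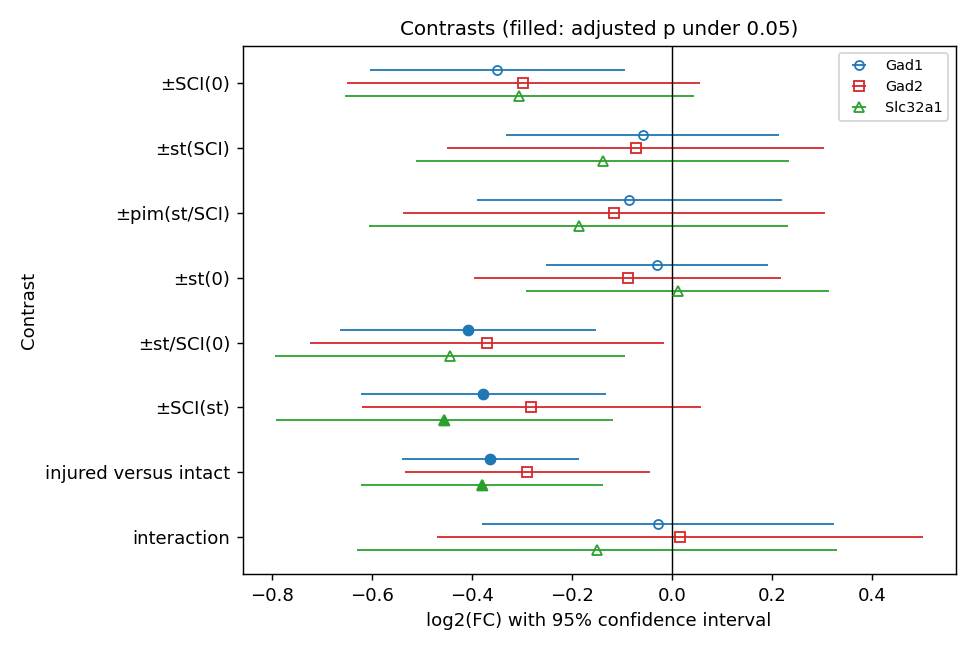
Log2(FC) of each gene (horizontal axis, point with its 95% confidence interval) in the 8 contrasts (vertical axis), with filled symbols for an adjusted p under 0.05 and open symbols otherwise. The 4 contrasts of injured with intact rats lie between -0.45 and -0.28, and the contrasts of stimulation and pimozide and the interaction lie between -0.19 and 0.02, with intervals that include 0.

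The 3 transcripts varied together among the injured rats, and Gad1 with Gad2 among the intact rats. After the group means were subtracted, rat 93 stood 18.3% above its group in Gad1, 27.7% in Gad2 and 33.5% in Slc32a1, and rat 75 stood 17.04%, 23.3% and 24.6% above. Rat 89 deviated from its group by -11.7% in Gad1, -16.2% in Gad2 and -28.5% in Slc32a1. Within groups C and D, then, the same rats were high or low in all 3 transcripts, apart from rat 90, whose Slc32a1 was above its group mean while Gad1 and Gad2 were below. Over the 17 rats, 8 had 3 deviations of one sign.

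Over these deviations Gad1 correlated with Gad2 at r = 0.90 (adjusted p = 0.0039, rho = 0.86, adjusted p = 0.0080, n = 17, permutation within groups) and with Slc32a1 at r = 0.80 (adjusted p = 0.027, rho = 0.75, adjusted p = 0.038, same permutation test). Gad2 correlated with Slc32a1 at r = 0.76 (adjusted p = 0.038, rho = 0.60, adjusted p = 0.12, same permutation test). Without the 2 rats farthest from the median the coefficients were 0.86, 0.82 and 0.67. The coefficients that follow, for injured and for intact rats apart, are on log2 levels and not on deviations. They were permuted without regard to group, and the injured rats include group D. These coefficients thus mix differences between groups with those between rats. Among the 8 injured rats r was 0.92 for Gad1 and Gad2, 0.93 for Gad1 and Slc32a1 and 0.90 for Gad2 and Slc32a1, with adjusted p of 0.0039, 0.00067 and 0.0045 in exact permutation tests (rho 0.93, 0.98 and 0.88, adjusted p = 0.0080, 0.0036 and 0.016). Without the 2 farthest rats these were 0.81, 0.86 and 0.78. Among the 9 intact rats Gad1 and Gad2 correlated at r = 0.87 (exact permutation test, adjusted p = 0.0052, rho = 0.80, adjusted p = 0.025), and at 0.58 without the 2 farthest rats. Slc32a1 did not follow them there detectably, at r = 0.36 with Gad1 and 0.38 with Gad2 (exact permutation test, adjusted p = 0.34 for both, rho 0.42 and 0.15, adjusted p = 0.30 and 0.71), and at -0.11 and -0.29 without the 2 farthest rats. The p-values are adjusted over the 9 relations computed, and the genes of a pair share library, depth and scaling.

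**Figure D4:**
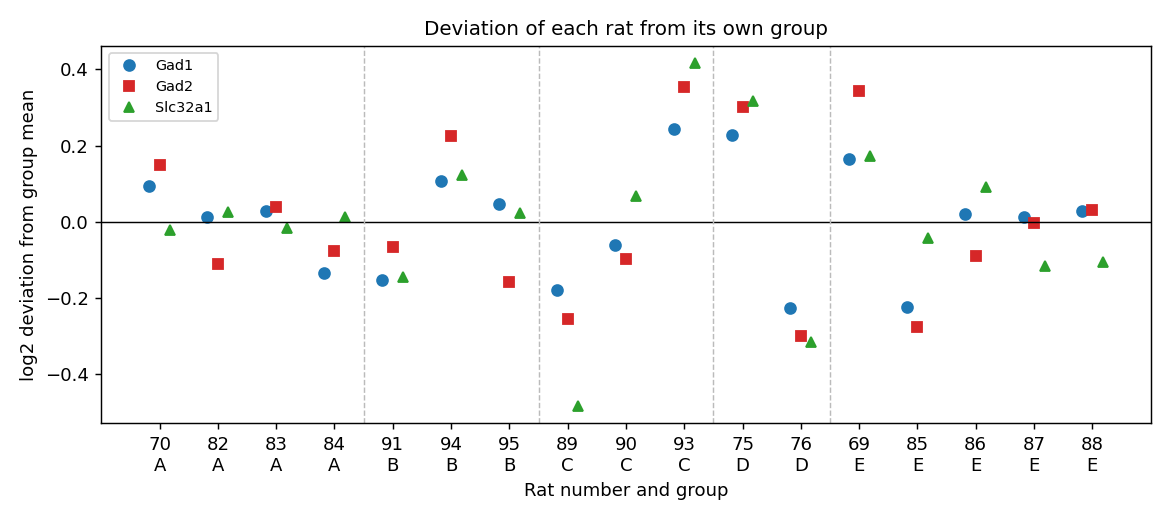
Log2 deviation of each rat from the mean of its own group (vertical axis) for Gad1, Gad2 and Slc32a1, by rat number and group (horizontal axis). In rats 93 and 75 the 3 transcripts lie above 0 and in rats 89 and 76 below 0, whereas in group A Slc32a1 stays close to 0.

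The proportions of the 3 transcripts to each other were compared next, since a ratio within a rat does not depend on library size. Gad1/Gad2 ranged from 0.938 to 1.19, Gad1/Slc32a1 from 1.02 to 1.55 and Gad2/Slc32a1 from 0.894 to 1.43 over the 17 rats. These ratios are not scaled for transcript length, so only their differences between rats can be read. The highest value of both ratios to Slc32a1 was that of rat 89. Between injured (B and C) and intact (A and E) rats, the mean log2 ratio differed by -0.07 for Gad1/Gad2, 0.04 for Gad1/Slc32a1 and 0.11 for Gad2/Slc32a1, with unadjusted p of 0.23, 0.64 and 0.24 in 2-sided exact permutation tests of 6 rats against 9. Between stimulated (C and E) and unstimulated (A and B) rats the differences were 0.05, 0.02 and -0.03, with unadjusted p of 0.39, 0.83 and 0.74 in exact permutation tests of 8 rats against 7. Adjusted over the 6 tests the lowest p was 0.73. The differences were smaller than the SDs of the ratios within the sets compared, which ran from 0.0835 to 0.211 on the log2 scale.

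**Figure D5:**
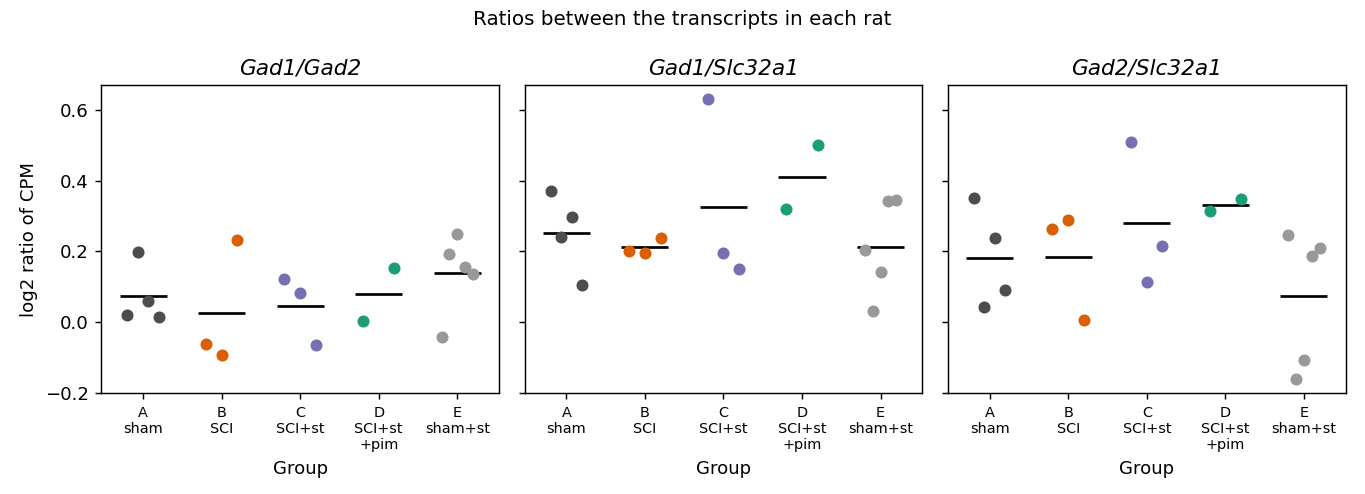
Log2 ratio of CPM between pairs of the 3 transcripts in each rat (vertical axis) by group (horizontal axis), with group means as bars. Groups A, B, C and E overlap in each ratio, and rat 89 of group C has the highest Gad1/Slc32a1 and Gad2/Slc32a1 of all rats.

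Genes with a like pattern were sought by correlation. Of the 15457 other genes tested, 397 correlated at r above 0.9 over the 17 rats with the mean of the 3 standardized members, and the median r was 0.08. The 10 closest had r of 0.968 to 0.982, and their log2(FC) in injured rats, which the choice by likeness to a mean that was lower there largely sets, was -0.41 to -0.27. The closest were ENSRNOG00000002361, at r = 0.982 and a mean of 21.1 CPM, and ENSRNOG00000060599, at r = 0.979 and 45.5 CPM. Gad1 itself had r = 0.978, with 2 other genes closer, although a member is part of the mean it is compared with. Gad2 had r = 0.960, with 33 other genes closer, and Slc32a1 had r = 0.957, with 38 closer. On deviations from the group means, 192 genes exceeded 0.9, and the 5 closest had r of 0.964 to 0.972. There 9 other genes were closer than Gad1, 34 than Gad2 and 155 than Slc32a1. The sources used here pair no symbol with these identifiers, and the correlations describe 17 libraries that also share their injury groups.

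The other genes of the inhibitory pathway could not be read by name. Lists of 57 genes for GABA and glycine handling, GABA and glycine receptors and classes of spinal inhibitory neurons had 0 genes that could be matched to an identifier, so no count of them is given. Likewise the markers of neurons in general, of glia, of peripheral nerve and of muscle could not be matched, with the exceptions of Slc17a7 and Actc1, and the tissue label was not checked further. Slc17a7, the vesicular glutamate transporter of excitatory terminals, was at 1.71 to 5.83 CPM in group A and 3.57 to 7.26 in group E, and at 2.12 to 3.58 in B, 0.261 to 1.29 in C and 0.997 to 2.63 in D. After injury alone, ±SCI(0), its log2(FC) was -0.42 (edgeR-adjusted p = 0.55) and the rats of B lay within the range of A. It fell by 2.98 in ±SCI(st) (edgeR-adjusted p = 0.00056). The average over both injured groups, which fell by 1.70 (edgeR-adjusted p = 0.0011), thus combines a low group C with a group B that was not called. Slc17a7 had counts of 3, 14 and 5 in rats 89, 90 and 93 of group C. In ±st(SCI) the log2(FC) of Slc17a7 was -2.16, not called here (edgeR-adjusted p = 0.999), whereas the paper flagged that decrease. The blood list, which was matched in full, with 6 of 6 genes (Alas2, Hba-a1, Hba-a2, Hbb, S100a8 and S100a9), summed to 204 to 1037 CPM in group A, 287 to 402 in B, 619 to 1730 in C, 236 to 343 in D and 242 to 623 in E. The mean blood sum was 717 CPM in A and 467 in E, against 342 in B, 1055 in C and 290 in D, so that it was above both intact means in C and below both in B and D. The blood sum of 1730 CPM was that of rat 93. Actc1, a muscle actin, was at 8.08 CPM in rat 76 of group D and at 0.0712 CPM in rat 75. It was at 1.13 CPM or less in the rats of the other groups. Rat 76 was also the lowest of the 17 rats in Gad1, Gad2 and Slc32a1. The part of blood or muscle RNA in the levels of Gad1, Gad2 and Slc32a1 was not tested.

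The rats carry numbers in a pair of series, 69 to 76 and 82 to 95, of which the first holds rats 75 and 76 of group D, rat 70 of group A and rat 69 of group E. Rats 69 and 70 had the highest Gad1 and Gad2 of their groups. In rats 82 to 95 alone, a fit added once results were known, the decrease in injured rats was 0.33 for Gad1 on the log2 scale (edgeR-adjusted p = 0.0047) and 0.36 for Slc32a1 (edgeR-adjusted p = 0.019). Gad2 had a log2(FC) of -0.21 there, at an edgeR-adjusted p of 0.097. Slc32a1 in ±SCI(st) was not called in that series, at a log2(FC) of -0.41 and an edgeR-adjusted p of 0.055. The first series holds 2 intact and 2 injured rats, the latter with pimozide, which allows no comparison of its own without the drug.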

How the data were processed

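Spinal cord RNA of 17 rats was sequenced as ribosomal RNA-depleted, stranded single-end 75 b libraries, 1 per rat. The authors trimmed reads (Trim Galore 0.4.1), aligned them with STAR 2.5.0a and deposited raw counts per Ensembl gene. The methods and the submitters' processing notes name different builds of the rat genome, and the strand setting of the counting is not given in the sources used here. Counts were analyzed in R 4.3.3 with edgeR 4.0.16 (filterByExpr, TMM, quasi-likelihood test, Benjamini-Hochberg adjustment, FDR 0.05), with all groups in one model. The paper's exact test and DESeq2 1.42.0 were alternatives, as were other scalings, filters and sets of rats. The edgeR script was tested on simulated data. Ratios were compared by exact permutation. Replicates are separate rats.

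The 3 genes, the lists and the tests were chosen with earlier results of these data known. Genes named were the 3 members, fixed list genes that could be matched, and the 10 genes closest in pattern over all rats and 5 over deviations. Symbols came from a supplementary list of identifiers, which named 8 of 91 marker genes and 0 of 57 pathway genes, and Gad1, Gad2 and Slc32a1 were given with their identifiers.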

Additional observations from a re-analysis of the deposited data

How the results depend on the processing

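In injured versus intact rats, Gad1 and Slc32a1 were called in each of the 10 other fits across genes and in all 17 fits that left out 1 rat, with log2(FC) from -0.42 to -0.32 for Gad1 and -0.49 to -0.28 for Slc32a1. Gad2, not called in the main model, was called with only the groups of the contrast (-0.29, adjusted p = 0.035), by DESeq2 (-0.28, adjusted p = 0.046) and with the pimozide group among the injured (-0.34, adjusted p = 0.017), and had an unadjusted p of 0.026 in the exact permutation test (-0.29). Leaving out 1 rat gave -0.38 to -0.23, called in 5 of 17 fits, without rats 75, 76, 85, 93 or 94 (without rat 93, edgeR-adjusted p = 0.0096).

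In ±SCI(0), Gad1 was called with only the groups of the contrast (-0.34), with the pipeline of the paper's methods (-0.29) and by DESeq2 (-0.35), and Slc32a1 by the former pair (-0.29 and -0.25). Gad1 was called there in 4 of 17 fits without 1 rat, and Slc32a1 in ±st/SCI(0) in 3 of 17. In ±st/SCI(0), Slc32a1 was called by edgeR's exact test (-0.44, adjusted p = 0.046) and DESeq2 (-0.44, adjusted p = 0.040). In ±SCI(st), Slc32a1 was not called with a term for the number series (-0.43), only the groups of the contrast (-0.45), the pipeline of the paper's methods (-0.45) or rats 82 to 95 alone (-0.41), at adjusted p of 0.062, 0.072, 0.064 and 0.055 (edgeR). Signs turned for Gad1 in ±st(0) with total counts (0.0070) and with the pipeline of the paper's methods (0.0069), for Gad2 in the interaction with total counts (-0.035), and for Slc32a1 in ±st(0) with rats 82 to 95 alone (-0.040). The causes were not tested.

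Leaving out 1 rat gave, for Gad1, -0.40 to -0.27 in ±SCI(0), -0.53 to -0.32 in ±st/SCI(0), -0.50 to -0.29 in ±SCI(st), -0.18 to 0.030 in ±st(SCI), -0.073 to 0.022 in ±st(0), -0.15 to 0.060 in the interaction and -0.33 to 0.12 in ±pim(st/SCI). For Gad2 the ranges were -0.56 to -0.25 in ±st/SCI(0), -0.47 to -0.16 in ±SCI(st), -0.26 to 0.050 in ±st(SCI), -0.18 to -0.023 in ±st(0), -0.18 to 0.14 in the interaction and -0.45 to 0.15 in ±pim(st/SCI). For Slc32a1 they were -0.66 to -0.23 in ±st/SCI(0), -0.68 to -0.25 in ±SCI(st), -0.36 to 0.070 in ±st(SCI), -0.033 to 0.040 in ±st(0), -0.37 to 0.059 in the interaction and -0.55 to 0.095 in ±pim(st/SCI). The difference in log2 ratio ranged from -0.035 to 0.061 (Gad1/Slc32a1, injured), -0.033 to 0.052 (Gad1/Slc32a1, stimulated), -0.082 to 0.013 (Gad2/Slc32a1, stimulated), 0.055 to 0.16 (Gad2/Slc32a1, injured), 0.027 to 0.081 (Gad1/Gad2, stimulated) and -0.11 to -0.047 (Gad1/Gad2, injured). Without rats 69 to 76 the Gad1/Slc32a1 difference with stimulation was 0.050. Where 1 rat of group D was left, it was assumed to vary like the other groups.

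Over all genes, 1912 were called in ±SCI(0), 3339 with only its groups and 3173 with the pipeline of the paper's methods. In ±st/SCI(0) 3380 were called, and 2251 with only its groups. In ±pim(st/SCI) 5 were called, against 20 without the filter, 1 with robust dispersions, 1 with the number series, 9 with only its groups, 77 by the exact test, 80 with the pipeline of the paper's methods and 74 by DESeq2. In ±st(SCI) the 0 calls became 3 with only its groups and 33 with the pipeline of the paper's methods, and in ±st(0) that pipeline called 51.

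No paired analysis was possible because the groups share no rat numbers. The alternatives for the pathway lists and the ratio to neuronal genes were not run, since no gene of the pathway lists or of the pan-neuronal list was matched. Rats 82 to 95 gave no value for ±pim(st/SCI), since they hold no rat of group D.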
